A study of Mus musculus with 16 samples.

Results

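Pcdh10, Sema7a and Camk2n1 are 3 mouse genes whose mean array signal was higher in sorted olfactory mucosa cells after a citrus odour than after filtered air. They were taken by gene symbol from the 19572 probe sets with a symbol, after earlier results of these data had shown them to be higher with citrus. Each had 1 probe set. Their citrus minus vehicle values are therefore given as a description, in either sorted population, and carry no test. The cells came from S100a5-tauGFP mice, in which a fluorescent reporter follows the S100a5 gene, which encodes a protein of the S100 calcium-binding family and is expressed more strongly in olfactory sensory neurons (OSNs) that odours activate. The 24 mice, males and females 7 to 12 weeks old, spent 40 h each alone in a chamber flushed at 3.1 L/min. From 26 h on, either citrus accord at 100%, a fragrance mixture, or filtered air as vehicle reached them in pulses of 10 s at intervals of 20 min. The mucosa was dissociated, cells of 3 mice were pooled, and a cell sorter parted the GFP-positive (GFP+) from the GFP-negative (GFP-) cells. The groups were citrus GFP+, citrus GFP-, vehicle GFP+ and vehicle GFP- cells, each with 4 Clariom S arrays, 16 in all. All mice carried the reporter. The GFP- gate held every cell type of the mucosa that lacks the reporter signal, OSNs included, and each array averaged over 3 animals.

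The 3 proteins act at the surface and at the synapses of neurons. Pcdh10, also called OL-protocadherin, is a delta-2 protocadherin, an adhesion protein that binds its like on a neighbouring cell and recruits the WAVE actin-regulating complex through Nckap1. In mouse OSNs its expression differs between neurons with different odorant receptors and is known to depend on activity. Sema7a is a semaphorin held to the membrane by a lipid anchor. It signals through plexin C1 and beta-1 integrins, and in the mouse olfactory bulb the amount of it on OSN axons is known to depend on odour and to promote synapse formation with mitral cells. Camk2n1 is a small protein that inhibits calcium/calmodulin-dependent kinase II (CaMKII), a kinase that couples calcium entry to changes at synapses.

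In the GRCm38.p6 gene table Pcdh10 lies at chr3:45378398-45434579, Sema7a at chr9:57939596-57962865 and Camk2n1 at chr4:138455148-138460126, so the 3 genes lie on different chromosomes and are not neighbours. RefSeq promoter windows of the same build matched 2 of the 3 genes. They are shown because cAMP and calcium signals act on many activity-regulated genes through the cAMP response element (CRE). Each line gives the 250 bases before the gene's start, on the plus strand and by the start site of the RefSeq promoter table, which for Sema7a lies within the listed gene span. They are at chr3:45378148-45378397 for Pcdh10 and chr9:57939862-57940111 for Sema7a, with matches to the CRE core TGACG on either strand in capitals.
Pcdh10: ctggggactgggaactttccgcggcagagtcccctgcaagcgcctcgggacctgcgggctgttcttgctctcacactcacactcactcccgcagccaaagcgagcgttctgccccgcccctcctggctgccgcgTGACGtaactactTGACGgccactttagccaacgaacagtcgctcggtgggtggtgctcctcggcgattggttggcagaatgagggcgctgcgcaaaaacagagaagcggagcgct
Sema7a: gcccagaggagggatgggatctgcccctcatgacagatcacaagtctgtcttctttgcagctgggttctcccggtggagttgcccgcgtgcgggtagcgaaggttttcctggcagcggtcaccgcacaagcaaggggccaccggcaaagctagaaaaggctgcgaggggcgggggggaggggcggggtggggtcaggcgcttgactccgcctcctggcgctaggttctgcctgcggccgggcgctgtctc
The Pcdh10 window held 2 matches to TGACG, from 116 to 112 and from 103 to 99 bases before the start, both on the plus strand. The Sema7a window held 0. Of 32851 promoter windows of that length, 17.8% held at least 1 match. The palindrome TGACGTCA, which contains the core, was in 0 of the 2 windows and in 1.55% of all. AP-1 sites (TGANTCA, 6.75% of all windows), EBF sites (CCCNNGGG, 11.8%), homeodomain sites (TAATTA, 4.84%) and TATA boxes (TATAAA, 12.4%), searched on both strands, had 0 matches in either. An E-box (CANNTG, 66.2% of all windows) was found in Sema7a and not in Pcdh10. These matches describe letters in a window and were not tested as binding sites. The windows were rich in G and C, with 63.2% for Pcdh10 and 66.4% for Sema7a, where the median over all windows was 52.4%.

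The arrays give a log2 expression value per probe set and no read depth, so precision is set by the number of arrays. Arrays of one group correlated at 0.985 to 0.992 across probe sets. The 95th percentile of 5222 negative-control probes, used here as the background level, lay between 8.75 and 9.71 per array. It was 8.75 to 9.27 in citrus GFP+, 8.88 to 9.0 in citrus GFP-, 8.90 to 9.71 in vehicle GFP+ and 9.18 to 9.40 in vehicle GFP- arrays. The sample was checked against its label with markers of mature OSNs: all 10, among them Omp, the olfactory marker protein, exceeded background on every array.

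Pcdh10 was above background on every array with citrus and below it on every array with vehicle. Its log2 expression was 12.76, 11.92, 12.19 and 11.94 on the 4 citrus GFP+ arrays and 11.28, 10.10, 10.44 and 9.64 on the 4 citrus GFP- arrays. On vehicle arrays it was 8.15, 6.84, 8.70 and 8.22 in GFP+ and 7.04, 6.27, 7.39 and 6.46 in GFP- cells. All 8 citrus arrays lay above all 8 vehicle arrays. Within a gate, all 4 citrus arrays exceeded all 4 vehicle arrays for 1.47% of probe sets in GFP+ and 1.26% in GFP- cells. The share that did so across both gates was not counted. The means were 12.20 ± 0.39 (SD, n = 4) in citrus GFP+ against 7.98 ± 0.80 in vehicle GFP+ cells, a difference of 4.22. In GFP- cells they were 10.36 ± 0.69 with citrus against 6.79 ± 0.51 with vehicle, a difference of 3.57. Of 19572 probe sets no other had so large a difference in either gate, and the choice of the gene used this contrast. Since Pcdh10 stayed under background on all vehicle arrays, the size of its difference is known only as a bound. On the deposited scale, the citrus mean was at least 7.23-fold higher in GFP+ cells and at least 2.12-fold higher in GFP- cells, set against the mean background level of the vehicle arrays. Single arrays can lie closer to background, as citrus GFP- replicate 4 did at 9.64.

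Sema7a was above background on every array, with a narrow spread within groups. It read 14.80, 14.68, 14.60 and 14.58 in citrus GFP+, and 13.57, 13.48, 13.50 and 13.38 in citrus GFP- cells. With vehicle it read 13.26, 13.18, 13.27 and 13.11 in GFP+, and 12.06, 12.43, 12.39 and 11.88 in GFP- cells. No 2 groups overlapped, and even citrus GFP- arrays, at 13.38 or more, lay above vehicle GFP+ arrays, at 13.27 or less. Over all probe sets, all 4 citrus arrays exceeded all 4 vehicle arrays for 1.47% in GFP+ and 1.26% in GFP- cells. All 4 GFP+ arrays exceeded all 4 GFP- arrays for 11.7% with citrus and 10.9% with vehicle. The share with citrus GFP- above vehicle GFP+ arrays was not counted. The gene was chosen on citrus minus vehicle, so nothing is read from the separation of the stimuli. The citrus mean was 14.66 ± 0.10 (SD, n = 4) against 13.20 ± 0.08 with vehicle in GFP+ cells, a difference of 1.46 or 2.76-fold. In GFP- cells it was 13.48 ± 0.08 with citrus against 12.19 ± 0.27 with vehicle, a difference of 1.29 or 2.45-fold. All values stood more than 2 log2 units above background.

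Camk2n1 lay near the background level with citrus and under it with vehicle. It read 9.66, 8.60, 9.51 and 9.06 in citrus GFP+ cells, of which replicates 1 and 3 exceeded background, and 9.05, 7.92, 8.23 and 8.37 in citrus GFP- cells, of which replicate 1 did. With vehicle it read 6.21, 6.24, 7.13 and 6.30 in GFP+ and 6.97, 7.64, 7.22 and 6.80 in GFP- cells, all under background. Within either gate the citrus arrays lay above the vehicle arrays, as they did for 1.47% of probe sets in GFP+ and 1.26% in GFP- cells. The choice of the gene used this contrast. The citrus mean was 9.21 ± 0.48 (SD, n = 4) against 6.47 ± 0.44 with vehicle in GFP+ cells, a difference of 2.74, and 8.39 ± 0.48 with citrus against 7.16 ± 0.37 with vehicle in GFP- cells, a difference of 1.23. Because the higher values themselves lie about the background level, no fold is given.

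**Figure D1:**
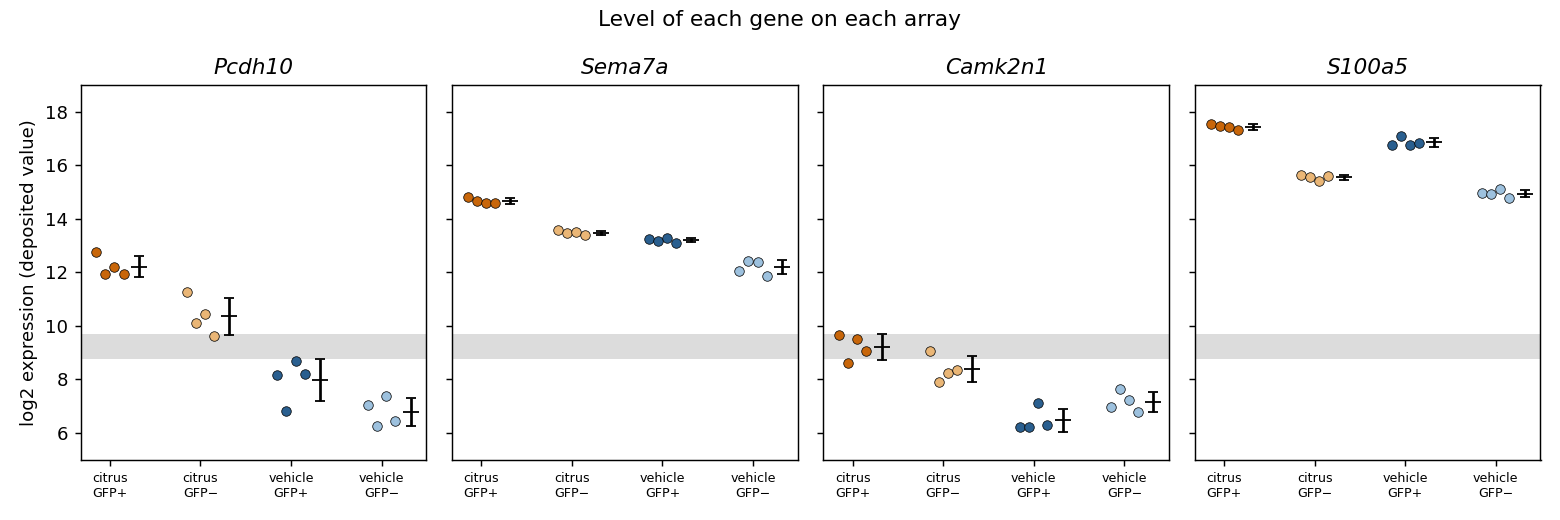
Log2 expression (y axis, deposited values) of Pcdh10, Sema7a, Camk2n1 and, for comparison, S100a5 on each of the 16 arrays, by group (x axis). Each point is 1 array, the bar and whiskers are mean and SD (n = 4), and the grey band spans the 95th percentiles of negative-control probes, 8.75 to 9.71. Pcdh10 lies above the band in citrus, except for 1 GFP- array at 9.64 inside it, and below the band in vehicle. Sema7a lies above it throughout, and Camk2n1 reaches it in citrus and not in vehicle.

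The order of the group means was citrus GFP+, citrus GFP-, vehicle GFP+, vehicle GFP- for Pcdh10 and Sema7a, from high to low. For Pcdh10 the last 2 groups overlapped. For Camk2n1 the order was citrus GFP+, citrus GFP-, vehicle GFP-, vehicle GFP+, with overlap between the gates in either stimulus. Some pools stood out in both gates. The pool of citrus replicate 1 had the highest value of its group for all 3 genes in GFP+ and in GFP- cells. Among vehicle pools, replicate 2 was lowest for Pcdh10 in either gate and replicate 4 lowest for Sema7a in either gate. Each was so for that gene alone, and vehicle replicate 2 was highest in GFP- cells for Sema7a (12.43) and Camk2n1 (7.64).

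S100a5, whose promoter drives the reporter, followed another order. It read 17.43 ± 0.10 (SD, n = 4) in citrus GFP+ and 15.55 ± 0.10 in citrus GFP- cells, and 16.86 ± 0.16 in vehicle GFP+ and 14.94 ± 0.13 in vehicle GFP- cells. For S100a5 the gate thus separated the groups more than citrus did, by 1.90 ± 0.09 (SE) over both stimuli, and citrus GFP- arrays lay below vehicle GFP+ arrays. Its citrus minus vehicle difference was 0.57 in GFP+ and 0.61 in GFP- cells, which ranked 275th and 303rd among all probe sets. Neither passed the threshold (limma adjusted p = 0.656 and 0.442, unadjusted p = 0.00039 and 0.00022). In either gate all 4 citrus arrays of S100a5 lay above all 4 vehicle arrays. Of all probe sets, 1.47% in GFP+ and 1.26% in GFP- cells did so.

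Few genes accompanied the 3. At a limma adjusted p under 0.05 over all 19572 probe sets, 4 passed in citrus against vehicle GFP+ cells, 0.0204% of those tested, and all 4 were higher: the 3 members and the odorant receptor Olfr353. In GFP- cells 3 passed, 0.0153%. Pcdh10 and Sema7a were higher, which was 0.0102% of those tested, and the odorant receptor Olfr618 was lower, 0.00511%. Olfr353 averaged 7.15 with citrus against 5.32 with vehicle (limma adjusted p = 0.0462) and Olfr618 5.26 with citrus against 8.04 with vehicle (limma adjusted p = 0.0270), means that all lie under background. These 2 calls depended on the settings: Olfr353 passed in 8 and Olfr618 in 9 of the 18 settings tried. The members were selected on these contrasts, so nothing is read from their count. All 4 citrus arrays exceeded all 4 vehicle arrays for 1.47% of probe sets in GFP+ and 1.26% in GFP- cells, the 3 members among them in either gate.

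What the choice of the genes did not use is the difference between the gates averaged over both stimuli, which is orthogonal to citrus minus vehicle in this balanced design. Pcdh10 and Sema7a were higher in GFP+ cells, and no gate difference was found for Camk2n1. Pcdh10 averaged 10.09 in GFP+ against 8.58 in GFP- cells, a difference of 1.51 ± 0.27 (SE, n = 8 arrays each, limma adjusted p = 0.000296). Sema7a averaged 13.93 in GFP+ against 12.84 in GFP- cells, a difference of 1.10 ± 0.10 (limma adjusted p = 1.07e-07). Either gene was higher in 8 of 8 pools, which gave a two-sided exact sign-flip permutation p of 0.00781. No smaller p can come from the 256 sign assignments. Over all probe sets 18% were higher in GFP+ cells at this threshold, 31.9% differed either way, and 13.5% were higher in all 8 pools. With other scalings of the arrays Pcdh10 and Sema7a stayed higher, while the median over all probe sets was 0.13 as deposited, 0.43 after centring each array on its median and -0.16 after centring on mature OSN markers. The vehicle arrays of Pcdh10 all lay under background, so that its gate difference was measured above background in citrus and not in vehicle.

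Camk2n1 averaged 7.84 in GFP+ against 7.77 in GFP- cells, a difference of 0.07 ± 0.20 (SE, 95% interval -0.36 to 0.49, limma adjusted p = 0.831, exact permutation p = 0.883), with 4 of 8 pools higher. After centring on mature OSN markers it was -0.22, again not past the threshold. This average joins opposite values, and all 8 vehicle arrays and 5 of the 8 citrus arrays of Camk2n1 were under background, so that both arrays of a pool were above it in citrus replicate 1 alone. The GFP+ minus GFP- difference was 0.61, 0.68, 1.28 and 0.69 in the 4 citrus pools and -0.76, -1.40, -0.09 and -0.50 in the 4 vehicle pools. The gate difference was positive in all citrus pools and negative in all vehicle pools, a pattern that 0.276% of probe sets showed, and it was not tested because it contains the citrus contrast. For Pcdh10 the pool differences were 1.48, 1.81, 1.76 and 2.30 with citrus and 1.12, 0.57, 1.32 and 1.76 with vehicle. For Sema7a they were 1.22, 1.20, 1.10 and 1.20 with citrus and 1.20, 0.74, 0.87 and 1.23 with vehicle. Both genes thus had positive differences in every pool, with overlapping ranges between the stimuli. All 4 GFP+ arrays exceeded all 4 GFP- arrays for Pcdh10 and Sema7a with citrus, where 11.7% of probe sets did so, and for Sema7a with vehicle, where 10.9% did.

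**Figure D2:**
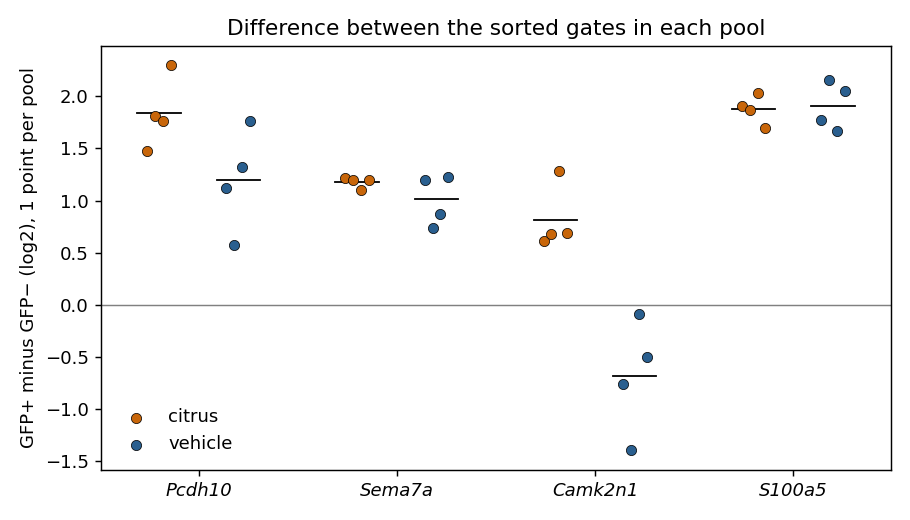
GFP+ minus GFP- difference in log2 expression (y axis) for Pcdh10, Sema7a, Camk2n1 and S100a5 (x axis), with 1 point per pool of 3 mice, citrus left and vehicle right, and a line at the mean of 4 pools. Differences are positive in all 8 pools except for Camk2n1, which is above 0 in 4 citrus pools and below 0 in 4 vehicle pools.

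The gates also differ in cell types, and in bulk samples fewer cells of a type cannot be told apart from less RNA per cell. Of 10 mature OSN markers 5 were higher and 0 lower in GFP+ cells over both stimuli, with a median difference of 0.28. The gate counts of the marker lists are to be read against all probe sets, where limma called 18% higher and 13.9% lower. Of 9 immature OSN markers 5 were lower (median -0.66), of 9 white blood cell markers 9 (median -5.96), of 6 microvillous cell markers 6 (median -3.72) and of 8 sustentacular and gland markers 4 (median -1.59). The summed log2 level of the white blood cell markers was 48.5 to 54.1 in citrus GFP+ against 99.3 to 117.02 in citrus GFP- cells, and 47.7 to 53.2 in vehicle GFP+ against 105.1 to 114.3 in vehicle GFP- cells. That of mature OSN markers was 176.8 to 177.4 in citrus GFP+ against 172.4 to 175.6 in citrus GFP- cells, and 175.4 to 177.5 in vehicle GFP+ against 172.8 to 175.3 in vehicle GFP- cells. In GFP+ cells 8 of the 9 white blood cell markers, all but Lyz2, lay under background on every array of either stimulus. Their part in the gate differences was not tested. Of 7 basal and cycling markers 4 were lower, and of 2 red blood cell markers 2. Some of the lower markers were under background on all arrays of both gates. They were Top2a, Neurog1 and Kit of the basal and cycling list and the microvillous Sh2d7, Ascl3 and Pou2f3. Nhlh2 of the immature OSN list and Notch2 of the sustentacular list were so too. Between citrus and vehicle, by limma, 0 of 54 markers in 8 lists, sex-linked genes included, passed in either gate, with 1 higher in GFP+ and 2 higher in GFP- cells at an unadjusted p under 0.05, where 4.06% of all probe sets in GFP+ and 5.88% in GFP- cells did so in either direction. Their median difference was 0.06 in GFP+ and 0.17 in GFP- cells. In GFP- cells the list medians reached 0.67 for sustentacular and gland cells, 0.84 for red blood cells and 0.48 for sex-linked genes. The part of these lists in the citrus values was not tested. Of 5 sex-linked genes in the list 3 were measured. Over all groups Eif2s3y exceeded background on 4 arrays, Uty on 1 and Kdm5d on 0. The balance of male and female mice between the stimuli was therefore not tested.

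The next question was whether other genes of the same pathways moved with citrus. Their lists were drawn up with earlier results known and leave out the 3 genes. Of 99 measured genes in 6 lists, a few of which stand in more than 1 list, 0 passed by limma in GFP+ or in GFP- cells, where 0.0204% and 0.0153% of all probe sets passed. At an unadjusted p under 0.05, 6 were higher and 0 lower in GFP+ cells, and 2 were higher and 8 lower in GFP- cells. Over all probe sets the share at that unadjusted threshold, in either direction, was 4.06% in GFP+ and 5.88% in GFP- cells, against which the unadjusted counts of each list below are also to be read. Their citrus minus vehicle differences lay between -0.37 and 1.07 in GFP+ and between -0.63 and 0.95 in GFP- cells, with medians of 0.04 and -0.01, where the medians of all probe sets were 0.01 and 0.01.

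Among adhesion genes like Pcdh10, 0 of 18 nonclustered protocadherins and members of the WAVE complex passed in either gate (limma, unadjusted 1 higher in GFP+ and 5 lower in GFP- cells, where 4.06% and 5.88% of all probe sets passed unadjusted). The list median was 0.07 in GFP+ and -0.17 in GFP- cells. Pcdh12, a protocadherin of blood vessel walls, read 4.55 with citrus against 4.13 with vehicle in GFP+ cells, all under background, and Abi1, a WAVE complex subunit, 9.99 with citrus against 9.62 with vehicle (both limma adjusted p = 0.999). In GFP- cells the delta-1 protocadherin Pcdh9 read 7.64 with citrus against 8.12 with vehicle, under background, and the delta-2 protocadherin Pcdh19 10.25 with citrus against 10.80 with vehicle (both limma adjusted p = 0.82). Nckap1, the WAVE subunit that binds Pcdh10, read 12.62 with citrus against 12.56 with vehicle in GFP+ cells and 12.61 in either group of GFP- cells.

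Of the semaphorins and their receptors 0 of 29 passed in either gate (limma, unadjusted 0 in GFP+ and 1 lower in GFP- cells), with list medians of -0.06 in GFP+ and -0.06 in GFP- cells. Plxnc1, the plexin that receives Sema7a, read 7.44 with citrus against 7.81 with vehicle in GFP+ cells and 8.19 with citrus against 8.44 with vehicle in GFP- cells, under background on all 16 arrays. Itgb1, the beta-1 integrin, read 10.73 with citrus against 10.69 with vehicle in GFP+ cells and 11.52 with citrus against 11.38 with vehicle in GFP- cells. Plxna4, a receptor for class 3 and class 6 semaphorins, had the smallest p in GFP- cells, at 12.47 with citrus against 13.02 with vehicle (limma adjusted p = 0.82). Sema3b, a secreted semaphorin, read 3.34 with citrus against 3.59 with vehicle in GFP+ cells, and the secreted repellent Sema3a read 7.73 with citrus against 7.29 with vehicle in GFP- cells, all under background.

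Of calmodulin kinases, calmodulins and calcineurin 0 of 17 passed in either gate (limma, unadjusted 1 higher in GFP+ and 1 lower in GFP- cells), with list medians of -0.02 in GFP+ and 0.00 in GFP- cells. CaMKII itself is built from 4 subunit genes. Camk2d, the subunit with signal far above background, read 17.66 with citrus against 17.62 with vehicle in GFP+ cells and 17.44 with citrus against 17.62 with vehicle in GFP- cells. Camk2g read 9.06 with citrus against 9.17 with vehicle in GFP+ and 9.27 with citrus against 9.52 with vehicle in GFP- cells. Camk2a read 8.65 with citrus against 8.67 with vehicle in GFP+ cells and 8.02 with citrus against 8.48 with vehicle in GFP- cells. Camk2a and Camk2b stayed under background on all 16 arrays, as did Camk2n2, the second inhibitor gene, which read 6.62 in either group of GFP+ cells and 6.06 with citrus against 5.91 with vehicle in GFP- cells. The calcineurin catalytic subunit Ppp3cb had the smallest p in GFP+ cells, at 16.60 with citrus against 16.26 with vehicle (limma adjusted p = 0.999), and Ppp3ca that in GFP- cells, at 14.94 with citrus against 15.28 with vehicle (limma adjusted p = 0.83).

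Molecules of OSN axon sorting, among which Pcdh10 and Sema7a belong by role, gave 0 of 14 past the threshold in either gate (limma, unadjusted 0 in GFP+ and 1 lower in GFP- cells), with medians of 0.08 in GFP+ and -0.06 in GFP- cells. Kirrel2, an adhesion protein regulated by activity, read 15.01 with citrus against 14.49 with vehicle in GFP+ cells (limma adjusted p = 0.999). Ncam2, a cell adhesion molecule of OSNs, read 14.48 with citrus against 14.17 with vehicle in GFP+ cells. The ephrin Efna5 read 13.78 with citrus against 14.41 with vehicle in GFP- cells (limma adjusted p = 0.77).

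Activity-linked OSN genes had positive differences throughout, though 0 of 5 passed in either gate (limma, unadjusted 3 higher in GFP+ and 1 higher in GFP- cells, where 4.06% and 5.88% of all probe sets passed unadjusted). The median was 0.62 in GFP+ and 0.62 in GFP- cells. Pcp4l1 read 15.32 with citrus against 14.70 with vehicle in GFP+ cells (limma adjusted p = 0.999). Kcnmb3, a potassium channel subunit, read 12.23 with citrus against 11.55 with vehicle in GFP- cells (limma adjusted p = 0.85). Of 19 immediate early genes, which cells switch on within minutes of stimulation, 0 passed in either gate (limma, unadjusted 1 higher in GFP+ and 1 higher in GFP- cells), with medians of 0.21 in GFP+ and 0.29 in GFP- cells. Nr4a1, a nuclear receptor of this class, read 7.89 with citrus against 6.82 with vehicle in GFP+ cells and 8.33 with citrus against 7.57 with vehicle in GFP- cells (limma adjusted p = 0.999 and 0.86). Dusp1, a kinase phosphatase, read 14.82 with citrus against 14.17 with vehicle in GFP+ cells. Arc, a synaptic effector, read 3.82 with citrus against 3.43 with vehicle in GFP- cells, under background. The Nr4a1 means given above were under background too, and Nr4a1 exceeded it on only 2 arrays over all groups.

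**Figure D3:**
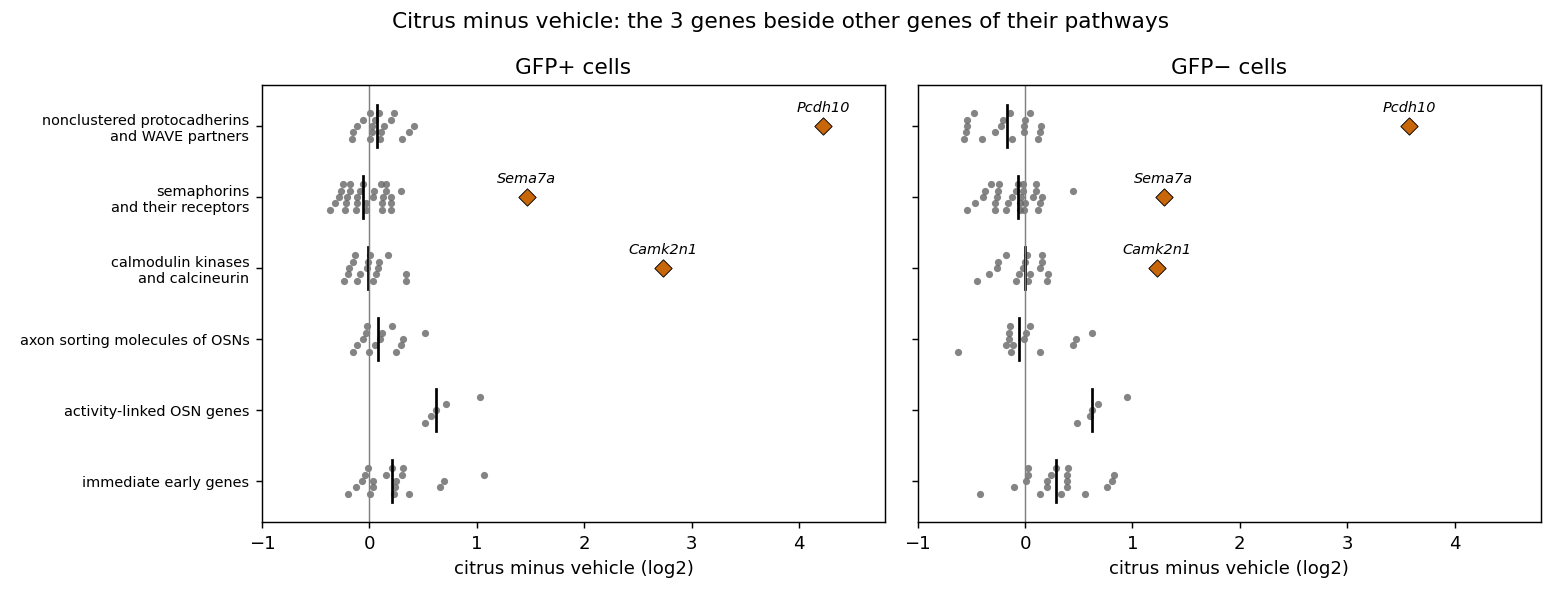
Citrus minus vehicle differences in log2 expression (x axis) in GFP+ cells (left) and GFP- cells (right) by gene list (y axis). Grey points are the other genes of each list, black bars their medians, and orange diamonds Pcdh10, Sema7a and Camk2n1. The other genes lie between -0.37 and 1.07 in GFP+ and between -0.63 and 0.95 in GFP- cells.

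Between the gates, in contrast to citrus, many genes of these lists differed. Over all probe sets 18% were higher and 13.9% lower by limma, 31.9% either way, against which the counts of each list below are also to be read. Of the 99, 21 were higher and 24 lower in GFP+ cells over both stimuli, with a median of 0.06, where that of all probe sets was 0.13. The split was 53 higher and 14 lower after centring each array on its median, and 12 higher and 39 lower after centring on mature OSN markers. Over all probe sets 56.4% of those that passed were higher as deposited, 86% and 15.1% in these scalings. Like Pcdh10, the delta-2 protocadherin Pcdh8 was higher by 1.38 ± 0.26 (SE, limma adjusted p = 0.00046) and the delta-1 protocadherin Pcdh7 by 1.08 ± 0.16 (5.5e-05). In that list 4 of 18 genes were higher, Wasf1 of the WAVE complex among them (0.49 ± 0.13), and 2 lower, Pcdh11x (-0.54 ± 0.18) and Wasf2 (-0.44 ± 0.15). Wasf1 and Pcdh11x were under background on all arrays. Wasf1 no longer passed after centring on mature OSN markers, nor Pcdh11x and Wasf2 after centring on array medians. Single pools also decided calls. Pcdh11x did not pass without citrus replicate 1 or without vehicle replicate 1, 2 or 4 (limma adjusted p = 0.0786, 0.0606, 0.0649 and 0.0523), nor Wasf2 without citrus replicate 1, 2 or 3 or without vehicle replicate 2 (limma adjusted p = 0.0551, 0.118, 0.0682 and 0.125). Nckap1 read 12.59 in GFP+ against 12.61 in GFP- cells, and its direction turns with the scaling, lower after centring on mature OSN markers and higher after centring on array medians.

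The receptors of Sema7a ran opposite to Sema7a. Plxnc1 was lower in GFP+ cells (-0.69 ± 0.14, SE, limma adjusted p = 0.000866), at 7.62 in GFP+ against 8.32 in GFP- cells and under background throughout, and so was Itgb1 (-0.74 ± 0.15, limma adjusted p = 0.00121), at 10.71 in GFP+ against 11.45 in GFP- cells. White blood cells express both genes, and their markers were lower in the same arrays, as were markers of other cell types given above. The part of any cell type in these differences was not tested. Among 29 genes of the list 4 were higher and 5 lower, where 18% and 13.9% of all probe sets were. Sema3e, a secreted semaphorin, was higher by 1.25 ± 0.12, Plxnb3 by 0.94 ± 0.15 and Sema6c by 0.81 ± 0.11, whereas the endothelial plexin Plxnd1 was lower (-0.70 ± 0.20). Plxnb3 and Plxnd1 were under background on all arrays, and Sema6c on all but 1. Plxnd1 no longer passed after centring on array medians or quantile normalization.

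In the calmodulin list 2 of 17 genes were higher and 5 lower in GFP+ cells, where 18% and 13.9% of all probe sets were. The inhibitor Camk2n2 was higher by 0.63 ± 0.16 (SE, limma adjusted p = 0.0049), though under background on all arrays, and the kinase Camk1 by 0.42 ± 0.12. The calcineurin regulator Rcan2 (-2.82 ± 0.32), the calcineurin subunit Ppp3ca (-1.20 ± 0.11) and Camk2b (-0.94 ± 0.21) were lower, with Rcan2 and Camk2b under background on all arrays. Camk2d, at 17.64 in GFP+ against 17.53 in GFP- cells, did not pass (limma adjusted p = 0.42), nor did Camk2a (0.068) or Camk2g (0.19). Camk1 and Camk2n2 no longer passed after centring on mature OSN markers, and Camk1 not without citrus replicate 3 or without vehicle replicate 2 (limma adjusted p = 0.0655 and 0.0604). Camk2a passed without citrus replicate 1 or without vehicle replicate 2 (limma adjusted p = 0.0394 and 0.0390). Camk2a and Camk2d passed as higher after centring on array medians, and Camk2g as lower after centring on mature OSN markers.

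Of 14 axon sorting genes 7 were higher and 3 lower in GFP+ cells, where 18% and 13.9% of all probe sets were. Kirrel2 was higher by 1.33 ± 0.32 (SE, limma adjusted p = 0.0037), and the ephrin receptors Epha5 and Epha7 by 1.04 ± 0.16 and 0.85 ± 0.22. Kirrel3, which OSNs express in a pattern complementary to Kirrel2, was lower (-0.63 ± 0.15), as were Sema3a (-0.56 ± 0.18, under background) and Efna5 (-0.39 ± 0.13). Efna5 did not pass with the pool as a block (limma adjusted p = 0.0616). After centring on array medians Kirrel3, Sema3a and Efna5 no longer passed, and after centring on mature OSN markers Epha7 did not. Sema3a did not pass without citrus replicate 1 or 4 or without vehicle replicate 4 (limma adjusted p = 0.0538, 0.0601 and 0.0571), nor Efna5 without citrus replicate 1, 2 or 4 or without vehicle replicate 1 or 2 (limma adjusted p = 0.0893, 0.0694, 0.0653, 0.0551 and 0.116). All 5 activity-linked genes were higher, by 2.44 ± 0.17 for Pcp4l1, 2.09 ± 0.38 for Lrrc3b and 1.91 ± 0.23 for Kcnmb3. S100a5 drives the gate and is no independent member of that list. Of 19 immediate early genes 0 were higher and 10 lower, where 18% and 13.9% of all probe sets were. The largest differences were those of Egr1 (-5.20 ± 0.63), Fos (-5.10 ± 0.62) and Btg2 (-4.55 ± 0.33), which white blood cells also express. Their GFP+ means of 6.01, 7.44 and 5.24 were under background, so these sizes are not exact. The white blood cell markers were lower in the same arrays, and their part in these differences was not tested.

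**Figure D4:**
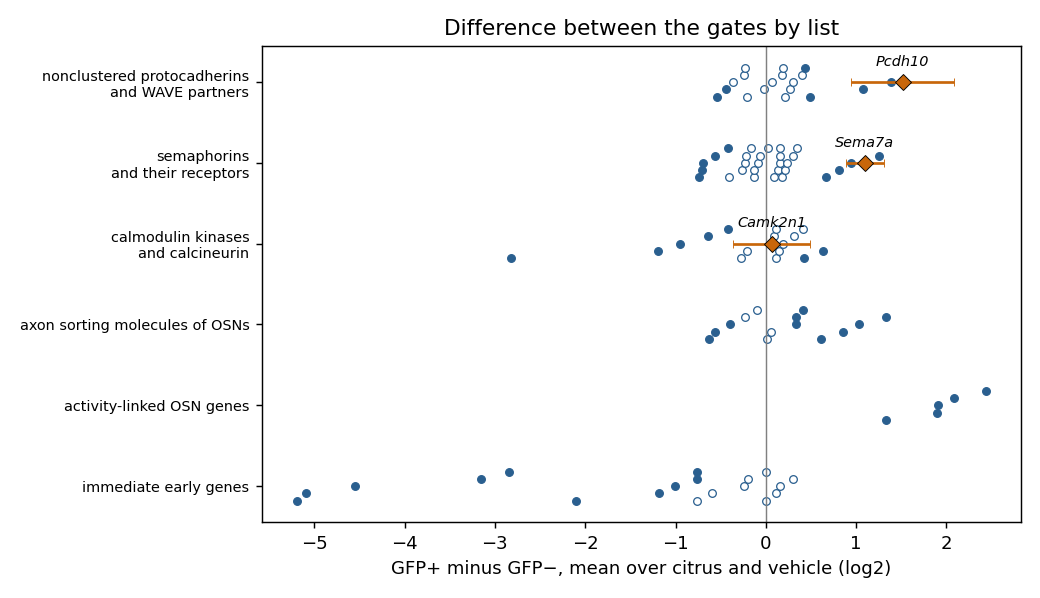
GFP+ minus GFP- difference in log2 expression, averaged over citrus and vehicle (x axis), by gene list (y axis). Filled points passed a limma adjusted p under 0.05, open points did not, and diamonds with 95% intervals are Pcdh10, Sema7a and Camk2n1. Sema7a has a difference of 1.10, while Camk2n1 has an interval that spans 0.

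Genes with the most similar pattern were found by the root mean square (RMS) difference over the 16 arrays, each gene centred on its own mean. Candidates were genes with at least 0.5 of the member's range of group means and a highest value above background. This is a description without a test. All 3 members were selected as higher with citrus on the same arrays, so nothing is read from their nearness to each other. Among these candidates the pattern closest to Pcdh10 was that of Camk2n1 (1.31 log2 units, n = 16 arrays). Lrrc3b (1.67), Pcp4l1 (1.83) and the odorant receptors Olfr651 (1.88) and Olfr846 (1.89) followed. Sema7a was closer to Pcdh10 (1.38) than Lrrc3b was, but was no candidate. Its range of group means, 2.47, fell short of 0.5 of the 5.41 of Pcdh10. The closest pattern to Camk2n1 was that of Sema7a (0.76), followed by Olfr1256 (0.83), Nr4a1 (0.91), Olfr1183 (0.95) and Fam81a (0.99). Sema7a was most like Tmem132a (0.50), Kctd1 (0.52), Fam81a (0.53), the calcium-activated potassium channel Kcnn2 (0.53) and Olfr1325 (0.55). Among the genes nearest to Sema7a, citrus minus vehicle differences were smaller than its own 1.46 in GFP+ and 1.29 in GFP- cells. Kcnn2 was at 0.57 in GFP+ and 0.75 in GFP- cells, and Tmem132a at 0.55 in GFP+ and 0.63 in GFP- cells. Apart from Camk2n1, the genes listed for Pcdh10 lay between 0.22 and 1.03 in GFP+ and between 0.48 and 1.00 in GFP- cells, against its 4.22 and 3.57. Those listed for Camk2n1 lay between 0.53 and 1.46 in GFP+ and between -0.02 and 1.29 in GFP- cells, against its 2.74 and 1.23.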

How the data were processed

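The authors deposited 28846 normalized log2 values per array, controls included. Per the submitters' processing notes the software was Affymetrix Expression Console, and a sample label names SST-RMA at gene level. Version and build: not given in the sources used here. Signal space transformation rescales intensities, and differences on it may exceed those in mRNA. No further scaling was applied. Tests covered the 19572 probe sets with 1 symbol in the platform annotation, and 2634 had none here. For the 55 symbols with several probe sets, lists used the probe set of highest mean. A probe set is under background on an array below the 95th percentile of its 5222 negative-control probes. RNA amounts of 50 to 100 ng were labelled, per the labels' protocols.

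A linear model with a mean for each group was fitted to all 16 arrays (limma 3.58.1, R 4.3.3), with empirical Bayes moderation, two-sided tests, and p-values adjusted by Benjamini-Hochberg over all 19572 probe sets (threshold 0.05). Errors of differences are standard errors of that model. The fits were tested on simulated data. The members, lists, tests and the rule for named genes (direct partners, list genes with the largest or best supported changes, and 5 genes of most similar pattern) were chosen with earlier results of these data known. Labels do not say whether replicates were independent beyond separate pools of 3 mice. GFP+ and GFP- arrays with one number were taken as the same pool, since 24 mice make 8 pools. Their deviations from the group means correlated at 0.075 to 0.275. All labels carry one common code, so no batch could be told from them. Plots: matplotlib 3.10.9, Python 3.11.15. Alternatives were other scalings, the pool as a block, filters, variance priors, array weights, fits of 2 groups, and leaving out each pool.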

Additional observations from a re-analysis of the deposited data

Results flagged for a closer look

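Within groups of 4, Dixon's test flagged 3 of 24 sets of values, and chance flags about 1 in 20. Camk2n1 read 7.13 on vehicle GFP+ replicate 3, where the other 3 arrays of the group lay between 6.21 and 6.30, all under background. The GFP+ minus GFP- difference of Camk2n1 was 1.28 in the citrus pool of replicate 3 and 0.61 to 0.69 in the other 3 citrus pools. That of Sema7a was 1.10 in the citrus pool of replicate 3 and 1.20 to 1.22 in the others. The listed gate difference of Camk2n1 was positive in all 4 citrus pools (0.82 ± 0.31, SD) and negative in all 4 vehicle pools (-0.69 ± 0.55). The stimuli thus differed by 1.51, and this difference was not tested. All 8 vehicle arrays and 5 of the 8 citrus arrays were under background for this gene, and both arrays of a pool were above it in citrus replicate 1 alone.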

How the results depend on the processing

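Pcdh10 and Sema7a kept a positive gate difference past the threshold under all 16 alternatives run for each (other scalings, block, filters, priors, array weights, and leaving out each pool). Pcdh10 lay between 1.22 and 1.82 under other settings and between 1.42 and 1.62 without each pool in turn, with adjusted p at or below 0.00265. Sema7a lay between 0.81 and 1.40 and between 1.06 and 1.14, with adjusted p at or below 1.02e-05. The scaling of the arrays shifts all gate differences: over all probe sets the median is 0.13 as deposited, 0.43 after centring on array medians and -0.16 after centring on mature OSN markers. The share of higher genes among those called was 56.4%, 86% and 15.1% in these 3 scalings, 63.2% with quantile normalization and 69.7% with only probe sets above background, and the counts of higher and lower probe sets were 3522 and 2719, 12465 and 2022, 835 and 4680, 4524 and 2630, and 2027 and 880. Camk2n1, which did not pass, turned to -0.22 when centred on mature OSN markers, and lay between -0.035 and 0.18 without each pool. Of the pathway genes 45 of 99 differed between the gates, 67 with arrays centred on the median (53 higher, 14 lower), 12 higher and 39 lower when centred on mature OSN markers, and 37 to 42 without each pool. With only probe sets above background 29 of 54 passed, as fewer genes were tested. With the replicate block (pool) it was 47 pathway genes, and the gate differences of the 3 genes stayed at 1.51, 1.10 and 0.07. Efna5 was then lost, and no other named gene.

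Citrus minus vehicle of Pcdh10 lay between 3.84 and 4.47 in GFP+ and 3.27 and 3.82 in GFP- cells without each pool, that of Sema7a between 1.42 and 1.49 and between 1.19 and 1.37, and that of Camk2n1 between 2.59 and 2.96 and between 1.01 and 1.39. None of these moved by more than the spread between arrays. Pathway genes past the threshold for citrus numbered 0 in either gate under all alternatives. Camk2n1 is left out when only probe sets above background on 4 arrays are kept, and Pcdh10 and Sema7a alone then passed in GFP+ cells. Sema7a did not pass in GFP- cells when only the 2 groups compared were fitted, and passed there in the other 17 of 18 settings. Camk2n1 passed in GFP- cells in 0 of the 18. The 3 genes were selected on citrus minus vehicle, so nothing is read from their passes. Olfr353 passed in GFP+ cells in 8 and Olfr618 in GFP- cells in 9 of the 18.

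Of 1131 repeats for 70 results on named genes, 1061 kept direction and side of the threshold, 32 fell short of it, 8 came to pass it and 30 changed sign. The sign changes all concern differences that did not pass. With arrays centred on the median, the gate difference was 0.28 for Nckap1 (adjusted p = 0.013) and 0.025 for Camk2g, and citrus minus vehicle was -0.052 for Nckap1 in GFP- and -0.00024 for Camk2n2 in GFP+ cells. When centred on mature OSN markers, it was -0.18 for the gate difference of Camk2d, and citrus minus vehicle in GFP+ cells was -0.016 for Itgb1, -0.039 for Camk2n2 and -0.011 for Camk2d. Quantile normalization gave -0.0014 for Itgb1 and -0.025 for Camk2n2 in GFP+ and -0.044 for Nckap1 in GFP- cells, and array weights -0.0058 for the last. Without each pool in turn, citrus minus vehicle in GFP+ cells lay between -0.038 and 0.12 for Itgb1, -0.00096 and 0.096 for Nckap1, -0.062 and 0.12 for Camk2n2, -0.19 and 0.14 for Camk2a, -0.49 and 0.041 for Camk2b, and -0.066 and 0.12 for Camk2d. In GFP- cells it lay between -0.053 and 0.39 for Itgb1, -0.070 and 0.046 for Nckap1, and -0.10 and 0.32 for Camk2b, and the gate difference of Nckap1 between -0.053 and 0.018. Why these values moved was not tested. Background signal limits Camk2n1 and the vehicle values of Pcdh10.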
